A study of Canis lupus familiaris with 2 samples.

Results

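Chromosome 5 of the dog genome from 56000001 to 56700000 (build canFam3, 1-based positions) holds a CpG-dense window that was almost unmethylated in untreated MDCK cells and partly methylated after TGF-beta. That window of 1000 bp ends at 56365000 and is called the gain below. A second CpG-dense window of 1000 bp, which ends at 56261000, was lower after TGF-beta and is called the lower window. The region was cut into 700 fixed windows of 1000 bp, and 622 of them had 5 or more CpG sites covered by 5 or more calls in each library. They were 622 of 1497941 such windows in the genome. A call is a read base over a CpG cytosine, methylated or unmethylated. The 2 windows were picked for their difference between the libraries, so their levels are a description. The test across all windows of the genome included them, and their calls in it are not a result. At the edge of the rule, 24 windows had exactly 5 such sites and were kept, and 20 had 4 and were left out.

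MDCK is an established epithelial line from dog kidney. Per the labels, the control cells were untreated and described as epithelial, and the other cells were given TGF-beta at 5 ng/ml and described as mesenchymal. Both were kept in culture in the same medium for 30 days. Each group has 1 library of whole-genome bisulfite reads, called the control and the treated library, so no difference here has a replicate check, and tests on calls compare these libraries and not the conditions.

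In vertebrates, methyl groups are placed on the cytosine of CpG by DNA methyltransferases, and most CpGs outside dense clusters carry them. Dense clusters, the CpG islands, often lie at promoters and are usually free of methylation, and a methylated promoter island is typically silent. TGF-beta is a secreted factor that drives epithelial cells into a mesenchymal state, with changed transcription and chromatin. Gene annotation and genome sequence of canFam3 are not used here, so windows are given by position and CpG content alone.

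The region was covered at 13625 of 14302 listed CpG sites, and the median depth of a site was 21 calls (control) and 47 calls (treated). Intervals are exact 95% binomial (Clopper-Pearson) intervals. They cover counting error only, and PCR copies or overlapping read mates that were counted separately would make them too narrow. Over all sites of the region, the summed level was 67.7% (67.5 to 67.8) of 311059 control calls and 68.2% (68.1 to 68.3) of 682507 treated calls. The mean of site levels was 64.7% and 65.8%. By parts of 100 kb the difference ran from -2.05 to 3.59 points by summed calls and from -1.05 to 2.25 by mean site level.

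Most windows differed little. The median difference, TGF-beta minus control, was 0.34 points (quartiles -2.05 and 2.90), against 0.44 points (quartiles -3.41 and 4.40) for the genome. It was under 10 points in 544 of 622 windows (87.5%), against 81.3% of windows in the genome. The summed calls of each window were compared by Fisher's exact test, two-sided, with Benjamini-Hochberg adjustment over the windows of the whole genome. Calls needed a difference of 20 points or more together with an adjusted p below 0.05. In the genome 2.22% of windows were called higher and 1.43% lower. In the region 11 of 622 (1.77%) were higher and 2 (0.322%) were lower, the 2 picked windows among them. Without the gain, 10 of 621 (1.61%) were higher, the 2 windows after it among them, and without the lower window 1 of 621 (0.161%) was lower. By this rule both shares in the region were below those of the genome. CpG content was not matched in this comparison. In the genome, 3.21% of windows with 5 to 9 listed sites were called higher, and 0.415% of those with 40 or more. With 20 points by mean site level asked for as well, 9 of 622 (1.45%) were higher, against 0.861%, and none was lower, against 0.455%. The gain and the 2 windows after it were among the 9.

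**Figure D1:**
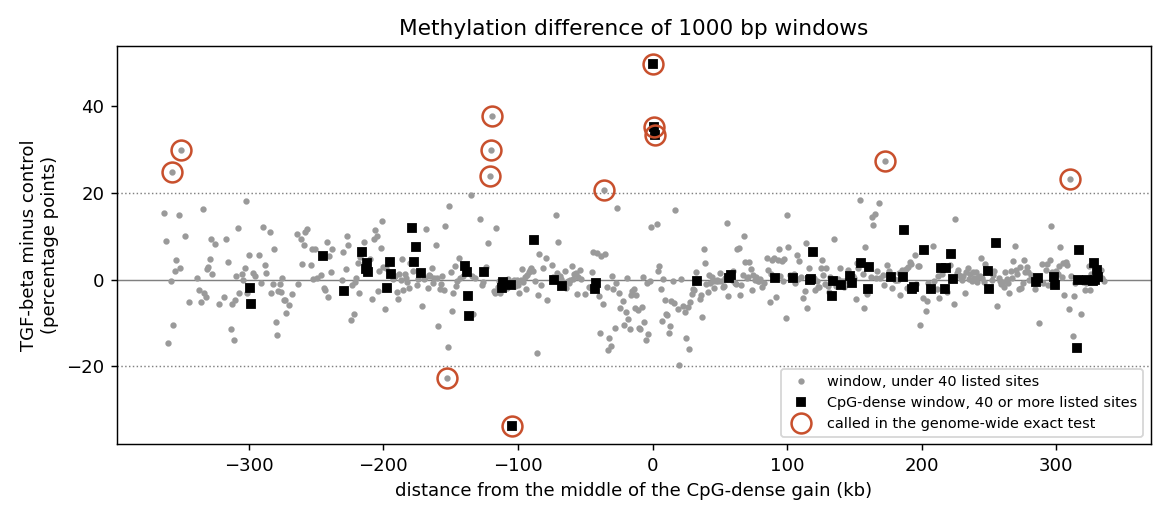
Difference in methylation (TGF-beta minus control, percentage points, summed calls) of the 622 windows against distance from the middle of the gain in kb; squares are CpG-dense windows, circles mark called windows and dotted lines mark 20 points. The gain and the 2 windows after it stand at 33.3 to 49.7 points, and the lower window at -33.8 points.

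CpG-dense windows were those with at least 40 listed sites, and the region held 76. In the genome 0.415% of such windows were called higher and 0.133% lower, and in the region 3 and 1 were. All 3 higher windows are adjacent, and 1 of them and the lower window are the picked windows, so these counts are not read against the background. Of the 24 dense windows under 10% in the control, the gain and its neighbour differed by 49.7 and 35.2 points. The other 22 ranged from -2.15 to 11.9 points, with a median of 0.61. The highest of these, at 56185001, went from 6.06% (4.99 to 7.28) to 18.0% (16.8 to 19.3), but its mean of site levels differed by 5.28 points. The next, at 56551001, went from 7.91% (6.45 to 9.57) to 19.4% (17.9 to 20.9), and its mean of site levels differed by 8.69 points. Among the 8 dense windows at 10% to 20% in the control, 1 of the gaining windows stood at 33.3 points and the other 7 between -3.69 and 6.33. The 27 dense windows at 80% or more ranged from -5.61 to 3.81 points.

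The 17 dense windows at 20% to 80% in the control ranged from -33.8 to 8.52 points. Besides the picked lower window, the lowest was at 56679001, which went from 55.2% (52.6 to 57.8) to 39.5% (38.0 to 41.0). Its mean of site levels differed by only -1.85 points, so that difference depended on how calls were spread over its sites.

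**Figure D2:**
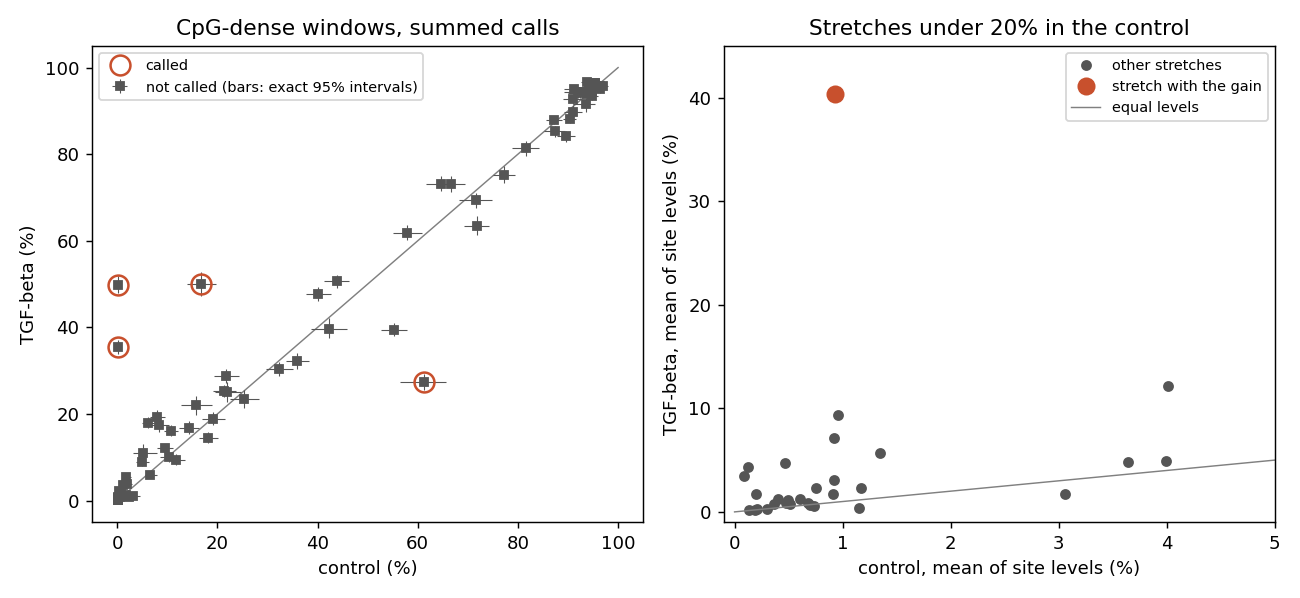
Left, summed methylation (%) of the 76 CpG-dense windows in both libraries, with exact 95% intervals as bars and called windows circled. Right, the mean of site levels (%) in the 30 stretches of at least 20 CpG sites that were each under 20% in the control, in both libraries; the stretch with the gain is at 40.4% in the treated library, and the others are at 12.2% or less.

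The window of the gain went from 0.201% (0.0244 to 0.726), 2 methylated of 993 calls, to 49.9% (47.9 to 51.8), 1296 of 2598 calls. By the mean of its 55 site levels it went from 0.182% to 49.7%. The strands gave the same size of gain, 49.9 points (plus) and 49.5 points (minus). All 55 sites were higher in the treated library. In the control 53 of them had no methylated call, at 9 to 26 calls per site, so they had no room to be lower. The smallest rise, at 56364360, was from 0 of 20 calls to 1 of 46. The remaining sites each had 1 methylated call, at 56364531 (5.26% of 19 calls) and at 56364804 (4.76% of 21 calls). Those sites stood at 10.0% (3.33 to 21.8) and 80.0% (64.4 to 90.9) in the treated library.

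Although every site was higher, the treated levels differed widely between sites. In the treated library, at 30 to 67 calls per site, levels ran from 2.17% (0.0550 to 11.5) at 56364360 to 95.5% (84.5 to 99.4) at 56364619, with the middle site, 56364287, at 51.6% (38.6 to 64.5). Levels under 20% were seen at 7 sites, 20% to 40% at 18, 40% to 60% at 9, 60% to 80% at 12 and 80% or more at 9. The interval of a site lay wholly above the level of the window at 19 sites and wholly below it at 18, and it held that level at the other 18. The SD of the site levels was 26.1 points, against 7.38 points from counting alone if each site were at the mean.

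The treated level rose and fell over short distances along the window, although most adjacent sites had overlapping intervals. In the consecutive 100 bp bins of the window, the treated level was 56.0%, 18.3%, 64.5%, 27.2%, 66.1%, 20.6% and 64.8%, and it was then 56.0%, 51.8% and 43.1%. Among the first 7 bins, no interval overlapped that of the next bin. The control was at 0% in 8 of these 10 bins and at 1.64% and 1.35% in the others. Of the 54 pairs of adjacent sites, 16 had intervals in the treated library that did not overlap. The level was 7.14% (56 calls) at 56364180 and 85.7% (63 calls) at 56364207, 27 bp away. It was 73.3% (30 calls) at 56364824 and 9.68% (31 calls) at 56364826, only 2 bp away. From 56364657 to 56364663 to 56364670 the level went from 57.1% to 22.4% to 81.6%.

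The strands, whose calls are counted separately, were also compared. All 16 steps had the same direction on the plus and the minus strand, but the steps were picked by the calls of both strands together, which favours that. Over the 53 sites of the window with at least 5 calls on each strand in the treated library, the strand levels were related (r = 0.84 across sites of 1 library, which are not independent replicates). The median absolute difference between the strands of a site was 12.3 points.

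The gain was not confined to its window. In the control, 140 consecutive covered sites from 56363835 to 56366363, over 2529 bp, were each under 20%, and 124 of them had no methylated call. All 140 were higher in the treated library, and 100 (71.4%) were higher by at least 20 points. As the stretch was defined by low control levels, its sites had little room to be lower. Summed over this stretch, the level went from 0.976% (0.664 to 1.38) of 3176 calls to 40.4% (39.2 to 41.5) of 7154 calls. The mean of site levels went from 0.933% to 40.4%. The next window, at 56365001, went from 0.185% (0.0382 to 0.540) to 35.4% (33.8 to 37.1). The one after it, at 56366001, went from 16.6% (13.9 to 19.7) to 49.96% (47.2 to 52.7).

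Within the stretch the gain was uneven at the scale of 100 bp too. After the window of the gain, the treated level was 40.1% in the bin from 56365001 and 54.7% in the bin from 56365401. It was low toward the right, at 18.98% over 15 sites from 56365901 and 18.4% over 8 sites from 56366001. It was 44.2% from 56366101 and 83.6% from 56366301. At the left edge, the bins from 56363801 and 56363901 were at 25.3% and 18.6%. Adjacent sites at most 10 bp apart differed by a median of 9.75 points (70 pairs), those 11 to 30 bp apart by 15.8 points (44 pairs), and those farther apart by 23.96 points (25 pairs). Neighbouring sites share reads, so these differences are not independent.

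**Figure D3:**
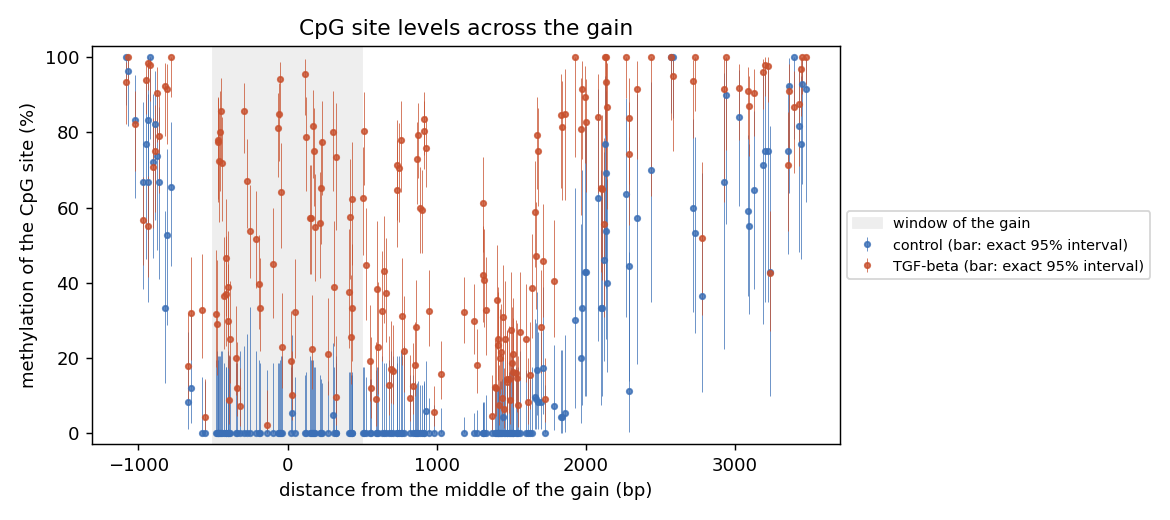
Methylation (%) of each CpG site in both libraries against distance in bp from the middle of the gain, with exact 95% intervals as bars and the window of the gain shaded. Control sites lie near 0% across the stretch while treated sites range from 2.17% to 95.5%, and to the right of the stretch the control is at intermediate levels that are higher in the treated library.

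The methylated borders of the stretch were also higher in the treated library, mostly on the right. The 18 sites from 56366427 to 56366935 went from 47.0% (39.7 to 54.5) to 84.8% (80.8 to 88.2), and all 18 were higher. From 56367001 to 56368000 the level went from 76.2% (71.0 to 80.9) to 89.1% (86.6 to 91.2). On the left, the 12 sites from 56363532 to 56363716 were at 68.8% (61.9 to 75.1) and 81.8% (78.4 to 84.9), with 7 higher and 5 lower. The rise lay in the sites nearest the stretch. The first 6 sites, to 56363599, were at 77.6% and 78.0%, and the next 5, to 56363691, were at 61.5% and 85.4%. The windows at 56362001 and 56361001 differed by -0.25 and -12.4 points.

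Around the gain, methylated windows were modestly lower, in an interval chosen after its values were seen. From 56334001 to 56395000, with the 6 windows from 56362001 to 56368000 left out, 43 of 52 windows were below 0 and 30 (57.7%) were lower by 5 points or more. On the left 15 of 27 windows were lower by that much, and on the right 15 of 25. In the rest of the region 45 of 564 (7.98%) were, and in the genome 19.2% of windows. The median level of the 52 windows was 86.2% without TGF-beta and 79.2% with it. Their median difference was -5.76 points by summed calls and -4.91 by mean site level. On single strands it was -2.41 points (plus) and -6.12 points (minus). None of the 52 passed the limits for a call.

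Unmethylated stretches elsewhere in the region stayed low. By the same definition, with at least 20 sites, the region held 29 others, of 23 to 218 sites and 270 to 2022 bp. The stretch with the gain was longer than each of them. At 55.4 sites per kb it was among the less dense, since only 5 of the 29 had fewer sites per kb, over a range of 26.3 to 141. By mean site level the others differed by -1.36 to 8.36 points, with a median of 0.83, and 24 of 29 were higher. In 3 of them the difference reached 5 points. Of their 2466 sites, 59 (2.39%) were higher by 20 points or more, and 11 stretches held no such site. Since the definition used control levels near 0, these stretches had little room to be lower.

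The spread between sites in the gain was no wider than in other intermediate dense windows. The other 9 dense windows at 30% to 70% in the treated library, which were at 32.4% to 71.8% in the control, had SDs of site levels from 27.7 to 43.0 points. The 3 gaining windows had SDs of 26.1, 23.8 and 32.4 points. A wide spread of site levels was thus also found in windows that were intermediate in both libraries. The SD does not tell levels that rise and fall along a window from a low block beside a methylated one. Among the other windows, those at 56188001, 56227001, 56581001 and 56679001 each held the edge of an unmethylated stretch.

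The lower window went from 61.2% (56.5 to 65.7, 456 calls) to 27.4% (25.6 to 29.3, 2233 calls) by summed calls and from 64.9% to 47.0% by mean site level. It lies between highly methylated windows. Those at 56257001, 56258001 and 56259001 were at 92.4%, 93.7% and 96.9% in the control and 92.6%, 93.2% and 95.8% in the treated library. Those at 56261001, 56262001 and 56263001 were at 95.5%, 93.8% and 94.9%, and at 95.6%, 92.4% and 94.9%. The loss was therefore limited, among these 7 windows, to the middle one.

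Inside that window the difference lay mostly in its left part, an account given after the values were seen. The 4 sites from 56260124 to 56260139 went from 93.8% (86.9 to 97.7) to 64.3% (57.8 to 70.4). The next 16 sites, from 56260154 to 56260448, went from 38.7% (32.8 to 44.9), 101 of 261 calls, to 0.925% (0.507 to 1.55), 14 of 1513 calls. All 16 were lower. The 15 sites from 56260547 to 56260909 were at 88.9% (81.0 to 94.3) and 92.2% (89.4 to 94.4). Among these 15, the site at 56260553 was lower by 20 points or more (100% of 6 control calls and 57.1% of 28 treated calls), and those at 56260879 and 56260909, of 5 control calls each, were higher by that much. By mean site level the middle sites differed by -35.7 points and the last sites by 4.30 points. On each strand the middle sites were near 0 in the treated library. They went from 31.4% to 0.524% on the plus strand and from 47.1% to 1.33% on the minus strand.

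The deepest sites of the window show this directly. At 56260244 the level was 38.9% of 18 calls in the control and 0.877% of 114 in the treated library, and at 56260264 it was 42.1% of 19 and 0.935% of 107. At 56260226 it was 46.7% of 15 and 0.943% of 106. Not all of them had much to lose: 56260295 stood at 20.0% of 20 calls in the control and 0.943% of 106, and 56260281 at 5.26% of 19 calls and at 0 of 107, which allows a level of up to 2.80% by a floor of 3 calls (the exact interval ends at 3.39%).

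**Figure D4:**
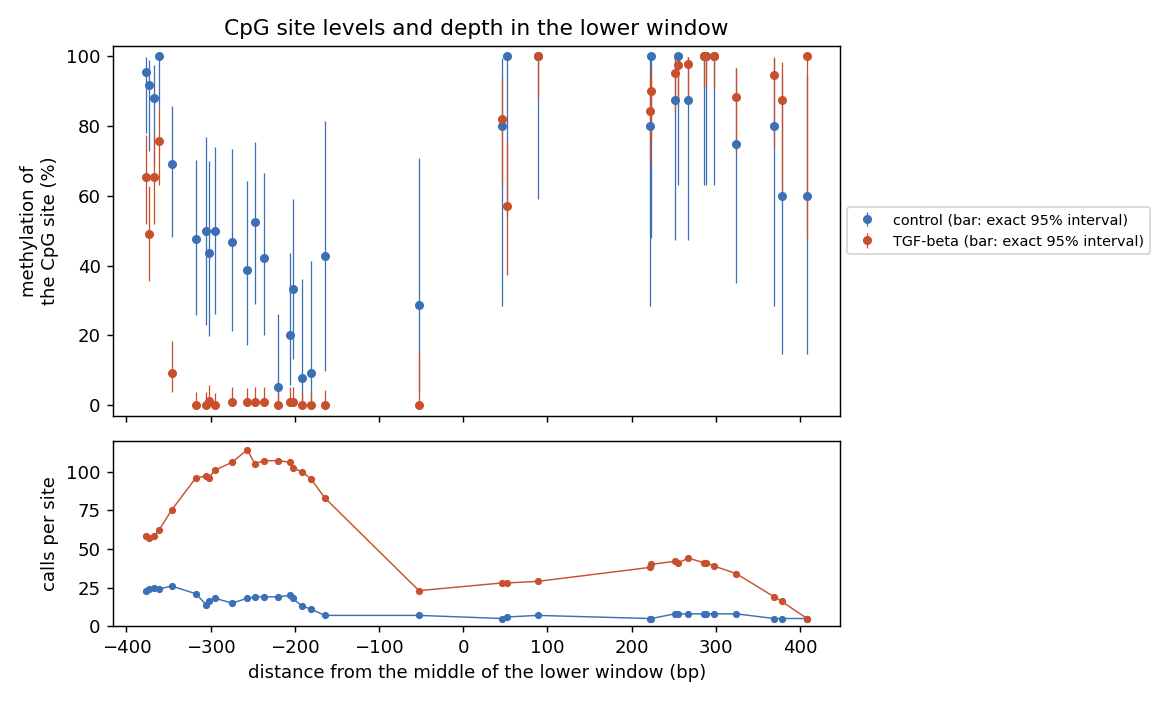
Top, methylation (%) of the 35 covered CpG sites of the lower window in both libraries with exact 95% intervals as bars; bottom, calls per site in both libraries, both against distance in bp from the middle of the window. The 16 middle-left sites are at 0% to 9.33% in the treated library, the sites to the right of them are high in both libraries, and the deepest treated sites are the low ones.

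The libraries also differed in depth here. The treated library had 4.90 times as many calls as the control in the lower window, the highest ratio of the 76 dense windows, whose median was 2.44. Over summed calls, dense windows had a ratio of 2.41 in the region and 1.92 in the genome. In the 16 middle sites of the lower window the ratio was 5.80, and in the gain it was 2.62. The first 4 sites of the lower window had a ratio of 2.45 and differed by -29.5 points. Its last 15 sites had a ratio of 4.90 and differed by 3.28 points. The part of depth in the loss was not tested. The middle sites had 7 to 26 calls each in the control and the last 15 sites only 5 to 8, which leaves each control level imprecise. Because the deep sites are the low ones, summed calls gave a larger loss than site means for the window as a whole, whereas within the middle sites both gave similar values.

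Every site of 10 or more calls in each library was tested with Fisher's exact test, adjusted over all such sites of the genome, and called by the same limits. In the genome 1.24% of sites were called higher and 1.09% lower, against 181 (1.48%) and 78 (0.639%) of 12208 in the region. The 3 gaining windows held 64 of the 181 and the lower window 11 of the 78. These windows were chosen for their difference or lie next to the one that was, so nothing is read from their site calls. Outside those 4 windows, 117 of 12046 sites (0.971%) were called higher and 67 (0.556%) lower.

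The other called windows of the region hold fewer CpGs. By the rule for naming, with at least 10 sites and 200 calls in each library, the gains besides the 3 adjacent windows were at 56244001 and 56328001. The window at 56244001 rose from 32.6% (26.4 to 39.2) to 62.5% (58.5 to 66.4) over 12 sites, with an adjusted p of 2.88e-12 in Fisher's exact test. The one at 56328001 rose from 48.5% (44.6 to 52.4) to 69.1% (66.7 to 71.4) over 26 sites, with an adjusted p of 4.82e-17 in the same exact test. Its strands were unequal, with 31.3 points for plus and 4.95 points for minus. Of the 11 higher windows, 10 also differed by 10 points on each strand, the gain and its called neighbours among them. That is 1.61% of the windows of the region against 1.65% in the genome. Of the 2 lower windows, only the picked one did, which is 0.161% against 1.01%. As that window was picked for its difference, nothing is read from this share. The other, at 56211001, moved in opposite directions on its strands, by -37.2 points (plus) and 11.7 points (minus).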

How the data were processed

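Whole-genome bisulfite reads of 2 MDCK libraries were used, 1 per group. The deposited values are a count of methylated and a count of unmethylated calls per CpG cytosine, with strands on separate lines. The submitters' processing notes give Bismark, Bowtie 0.12.8 and canFam3, but the labels' protocol has SOAPaligner2 as aligner. Treatment of duplicates and of overlapping mates is not given in the sources used here, and both would affect depth. The column of methylated calls was told from mitochondrial DNA, at 0.211% and 0.329%. In each file 1 line without a numeric position was left out. The libraries held 656122583 and 1019766599 calls.

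Adjacent cytosines were summed into sites. Sites needed 5 calls in both libraries and windows of 1000 bp needed 5 sites. Level is methylated over all calls. Windows were tested genome-wide with Fisher's exact test, adjusted by Benjamini and Hochberg's method, and the script was tested on simulated data. The picked windows were in that test, but nothing is read from their calls or from those of their sites. Windows named are the picked ones, 3 on each side, CpG-dense windows, and the 5 largest called gains and losses with 10 sites and 200 calls per library (only 1 loss met this). Sites named are the highest, middle and lowest of the gain, those with a control methylated call, and the 5 deepest of the lower window. Other named bins, stretches and sites were picked after their values were seen. The region, rules and lists were chosen with earlier results of these data known. Alternatives were site means, 1 or 10 calls, single strands, equal calls per site, other size limits and, for counts of calls and the picked windows, shifted windows. Tools were Python 3.11.15 with scipy 1.17.1, numba 0.67.0, numpy 2.4.6, matplotlib 3.10.9 and pandas 2.3.3.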

Additional observations from a re-analysis of the deposited data

How the results depend on the processing

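The gain differed by 47.7 to 49.9 points with other site weighting, call minimums, single strands or equal calls per site. With its window moved by 500 bp, chosen after seeing the data, it differed by 37.1 points (left) and 46.9 points (right), and the lower window by -26.9 (left) and -0.89 points (right). With all windows shifted by 500 bp, 10 were called higher and 3 lower. In place, the difference of the lower window depended on how sites were weighted and on which sites were kept. It was -17.9 points by mean site level and -26.5 with calls drawn to equal numbers per site. With sites of at least 10 calls it was -44.2 points. That minimum kept 18 of the 35 sites. None of the 15 sites from 56260547 to 56260909 was kept, as they had 5 to 8 control calls each. The region as a whole differed by 0.548 points, by 1.09 by mean site level, by 0.97 on the plus strand and by -0.0344 on the minus strand, so its sign is not settled. With a limit of 10 points, 47 windows were called higher and 27 lower, and with 30 points 4 and 1 were. Asking for 20 points by mean site level as well left 0 lower windows, and asking for 10 points on each strand left 1. These limits by construction change how many windows pass. Single control sites, at a median of 21 calls, limit precision. No paired analysis was possible because each group has 1 library, and leaving out a library was likewise not run.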

Other observations

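A further place of higher methylation lies in 3 adjacent CpG-poor windows from 56243001 to 56246000, which were all called higher and were singled out after their values were seen. Their 30 sites rose from 22.6% (19.1 to 26.5) of 517 calls to 53.5% (50.6 to 56.3) of 1229 calls, or from 24.97% to 54.9% by mean site level. Of these sites 28 were higher and 1 was lower. The rise was large at 56243924, from 11.1% of 18 calls to 75.9% of 29, and at 56245266, from 16.7% of 18 to 76.3% of 38. It was small at 56244029, from 80.0% of 15 calls to 83.3% of 54. Summed calls were at 31.3% on the plus and 11.2% on the minus strand in the control, and at 56.7% and 48.8% in the treated library. The calls of the strands were spread unevenly over the sites, so these sums do not compare strands at the same sites. In the control, 56244208 had 24 plus and 0 minus calls, and 56244795 had 0 plus and 21 minus calls.

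Among the unmethylated stretches outside the gain, 7 of 29 held a site at 50% or more in the treated library. The largest difference by mean site level, 8.36 points, was in the stretch from 56292544 to 56293720, at 0.954% in the control and 9.31% in the treated library, where 3 of 32 sites were higher by 20 points or more and the highest was at 82.5%. In the stretch from 56518580 to 56519077, 5 of 23 sites were higher by that much, and the mean went from 4.01% to 12.2%. In the largest stretch, from 56649174 to 56651195, the mean of 218 sites was 0.682% and 0.817%, and 1 site was higher by 20 points or more.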
